A study of Mus musculus with 6 samples.

Results

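The 8 genes described here are 7 P4-ATPases (Atp11a, Atp11b, Atp8a1, Atp8b1, Atp9a, Atp9b and Atp10d) and Tmem30a, the subunit that most P4-ATPases need. They were taken by symbol from the 25184 genes of the deposited count table, and 8 of 8 passed the filter on low counts that left 15105 genes for testing. Primary hepatocytes from chow-fed mice were cultured overnight and profiled by stranded mRNA sequencing in 6 libraries, 3 of each genotype. The study asked whether hepatocyte loss of Sucnr1, the cell-surface receptor for succinate, affects liver zonation. Zonation means that hepatocytes differ in their metabolic profiles along the porto-central axis. Hep-Sucnr1 KO mice carried floxed Sucnr1 alleles, with loxP sites around exon 2, and 1 copy of a Cre transgene (Alb-Cre+/-) under the Alb promoter, which is active in hepatocytes. Sucnr1 fl/fl mice carried the same floxed alleles without Cre, so the KO libraries differed from the controls both in Sucnr1 and in the presence of Cre. The Cre line had a C57BL6J background, and age and sex of the mice behind these libraries were not given in the sources used here. RNA of fl/fl library 1 and KO library 3 was extracted on day 1, and RNA of fl/fl libraries 2 and 3 and KO libraries 4 and 5 on day 2. The replicate numbers only name the libraries.

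P4-ATPases, or flippases, use ATP to move phospholipids from the outer (exoplasmic) to the inner (cytosolic) leaflet of a membrane. By doing so they keep phosphatidylserine and phosphatidylethanolamine on the cytosolic side, a difference between leaflets that scramblases dissipate, for example when dying cells expose phosphatidylserine. Most of them leave the endoplasmic reticulum only together with a CDC50 subunit, of which TMEM30A is the most widely expressed, whereas ATP9A and ATP9B do not depend on one. In liver, ATP8B1 acts at the canalicular membrane, and its loss causes a familial intrahepatic cholestasis.

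The set was drawn up around Atp11a because this gene had been called in the genotype comparison of these same libraries. The value that chose it was an adjusted p of 0.0463 from DESeq2 with its default independent filtering, at a threshold of 0.05. Clec2h, just outside the threshold, had 0.0547, and Sucnr1, the next gene inside, had 0.0328. The same DESeq2 fit without independent filtering gave Atp11a an adjusted p of 0.0556, and the edgeR quasi-likelihood fit used below gave 0.998. Genotype values of the 8 genes are therefore a description, with no test.

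Atp11a lies at chr8:12757014-12868728 on the plus strand of GRCm38, and Atp11b, a flippase of the same subgroup, at chr3:35754106-35856276, also on the plus strand. Their promoters are printed because these relatives held different places in the genotype comparison. Atp11a, which was chosen on it, was higher in KO libraries, whereas the Atp11b groups overlapped, with a lower mean in KO libraries. Whether the sequences bear on these values was not tested. Each sequence runs 5′ to 3′ from 250 bases before to 50 bases after the RefSeq start site (GRCm38.p6, plus strand), at chr8:12756766-12757065 for Atp11a and at chr3:35753813-35754112 for Atp11b. Capitals mark the GC box letters GGGCGG, or CCGCCC where the box is on the other strand.
Atp11a: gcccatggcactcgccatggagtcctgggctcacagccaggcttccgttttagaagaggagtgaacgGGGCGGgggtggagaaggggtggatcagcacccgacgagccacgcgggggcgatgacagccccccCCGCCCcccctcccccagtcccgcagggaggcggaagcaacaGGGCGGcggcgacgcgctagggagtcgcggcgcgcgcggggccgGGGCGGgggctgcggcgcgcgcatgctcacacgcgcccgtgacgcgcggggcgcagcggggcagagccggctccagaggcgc
Atp11b: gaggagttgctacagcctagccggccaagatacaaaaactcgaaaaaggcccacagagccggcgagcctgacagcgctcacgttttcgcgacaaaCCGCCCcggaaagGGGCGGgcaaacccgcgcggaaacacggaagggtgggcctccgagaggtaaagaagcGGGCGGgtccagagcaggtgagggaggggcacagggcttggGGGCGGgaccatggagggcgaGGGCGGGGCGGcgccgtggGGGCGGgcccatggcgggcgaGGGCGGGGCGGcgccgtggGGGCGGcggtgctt
The Atp11a window held 4 GC boxes and 39 CG dinucleotides, with 76% G or C, and the Atp11b window held 10 GC boxes, some of them overlapping, and 33 CG dinucleotides, with 70.7% G or C. Over all 32851 promoters of the same length in the table, the median was 7 CG dinucleotides and 52.7% G or C, and 35.7% held at least 1 GC box on either strand. The letters TATAAA, searched on both strands and present in 13.6% of all promoters, were in neither window. Of the 8 genes, 5 had an entry in the promoter table. Tmem30a, whose promoter held no GC box, had 26 CG dinucleotides and 63% G or C, and the Atp8a1 promoter held 4 GC boxes and 31 CG dinucleotides. Atp9a had several windows at different start sites, from 88.7% G or C with 7 GC boxes to 47.3% G or C with 0. CG-rich windows were found at genes with very different levels, and such letter matches describe the sequence without showing binding.

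Library depth ranged from 30504248 to 38770694 counted read pairs. Sucnr1 had 258, 118 and 103 counts in fl/fl libraries 1, 2 and 3 and 84, 28 and 5 counts in KO libraries 3, 4 and 5. Every KO library was below every control, at a log2 fold change of -2.23 (SE 0.54, edgeR FDR 0.998, DESeq2 adjusted p 0.0386), although KO library 3 retained a count near that of fl/fl library 3. For genotype, edgeR called 0 of 15105 genes at an FDR of 0.05 (0%), and 563 genes (3.73%) had an unadjusted p below 0.05. DESeq2 without independent filtering called 7 (0.0463% of genes), and Atp11a was not among them. All 5 hepatocyte markers were detected in all libraries, with summed levels of 60418 to 80660 CPM (counts per 1000000 counts of the library) in fl/fl and 49830 to 82870 CPM in KO libraries. All 6 Kupffer cell markers were detected in all libraries too, at 23.5 to 86.7 CPM in fl/fl and 4.84 to 73.1 CPM in KO libraries, and lowest in KO library 3. The remaining lists likewise overlapped between genotypes, at 18.6 to 43.6 CPM for sinusoidal endothelial cells, 3.31 to 20.5 CPM for stellate cells, 350.0 to 650.2 CPM for cholangiocytes (Krt7 at 0 in some libraries), 1.61 to 15.1 CPM for erythroid cells, 0.260 to 2.80 CPM for neutrophils (Retnlg and Ly6g at 0 in some) and 0.316 to 3.13 CPM for lymphocytes (Cd3g, Ms4a1 and Nkg7 at 0 in some).

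Atp11a, the gene chosen on this contrast, had more transcripts in the 3 KO libraries than in the 3 fl/fl libraries. ATP11A is a plasma membrane flippase for phosphatidylserine and phosphatidylethanolamine, and caspases cleave it in apoptotic cells. Its counts were 366, 425 and 354 in fl/fl libraries 1, 2 and 3 and 521, 841 and 615 in KO libraries 3, 4 and 5. Scaled to library size by TMM (trimmed mean of M values), these were 9.52, 12.8 and 11.7 CPM in fl/fl and 16.5, 24.8 and 18.7 CPM in KO libraries. The lowest KO library, extracted on day 1, lay above the highest control, extracted on day 2, and KO library 4 stood highest of the 6. Mean levels were 11.3 CPM ± 1.66 (SD, n = 3) in fl/fl and 20.0 CPM ± 4.33 (SD, n = 3) in KO libraries, and the fitted log2 fold change, with extraction day as covariate, was 0.82 (SE 0.14), or 1.76-fold. Because hepatocyte cultures are bulk samples, more cells that express a gene and more RNA per cell cannot be told apart.

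Atp11a was chosen on a fit to these libraries with day as a covariate, so its values within each day are a description. On day 1, KO library 3 had 1.73 times the level of fl/fl library 1, and on day 2 the mean of KO libraries 4 and 5 was 1.78 times that of fl/fl libraries 2 and 3. Leaving out each library in turn gave genotype log2 fold changes from 0.69 (without KO library 4) to 0.93 (without KO library 5). The library names fall into 2 runs of index numbers, of which fl/fl libraries 1 and 2 form the first. Within the second run, Atp11a was at 11.7 CPM in fl/fl library 3 and at 16.5 to 24.8 CPM in the 3 KO libraries, and a fit with the run as a further term gave 0.90 (SE 0.24).

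**Figure D1:**
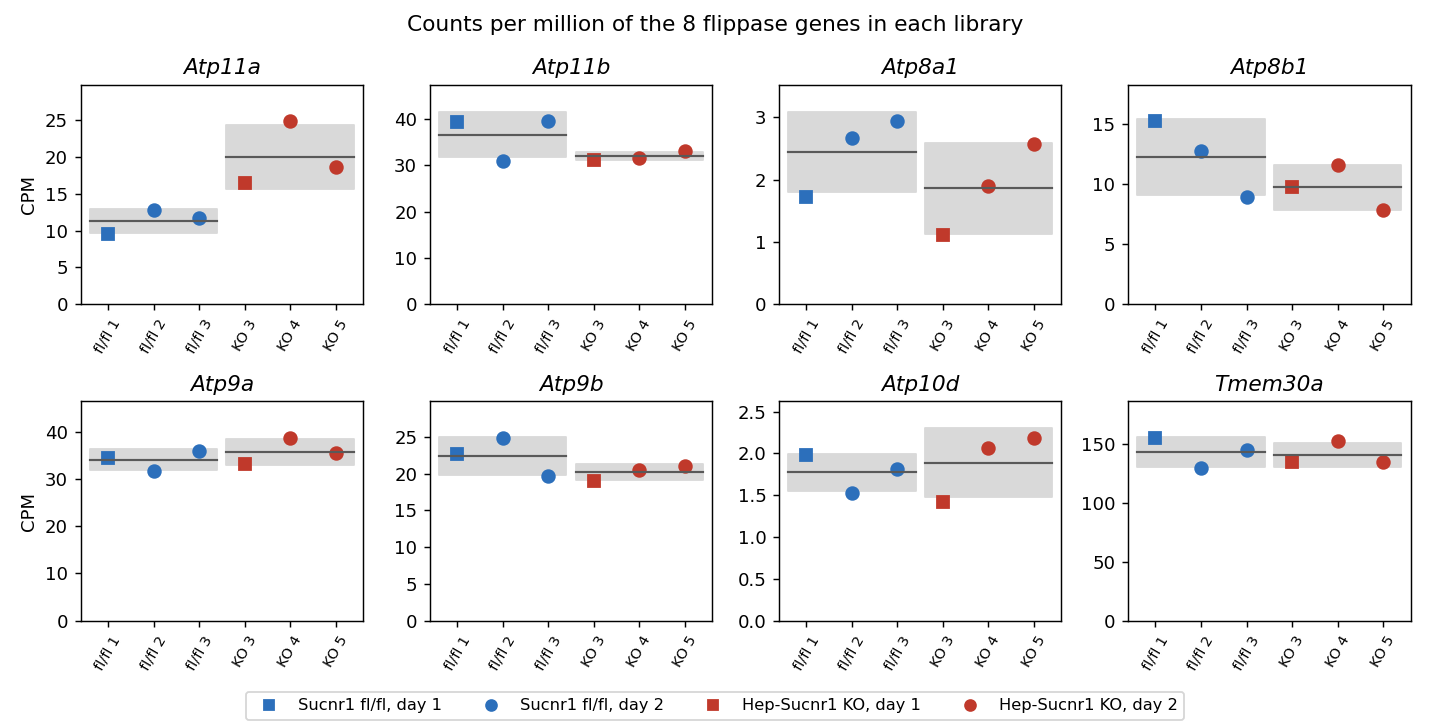
Each panel plots CPM (y axis, from 0) of 1 gene in the 6 libraries (x axis). Blue marks Sucnr1 fl/fl and red Hep-Sucnr1 KO, squares day 1 and circles day 2, the line is the group mean and the grey band ± 1 SD (n = 3). Only for Atp11a do the red points (16.5 to 24.8 CPM) lie wholly above the blue ones (9.52 to 12.8 CPM). Atp11a was picked on this genotype comparison.

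Of the 8 genes, Atp11a was the only one whose genotype groups did not overlap. Among all genes tested, 1600 of 15105 (10.6%) had groups that did not overlap, 990 of them (6.55%) with KO above fl/fl. Since Atp11a was picked on this contrast, its place in that count is no result.

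Atp11b, a relative of Atp11a, did not share its pattern of levels. This flippase, which acts at endosomes and the trans-Golgi network, was at 39.3, 31.0 and 39.5 CPM in fl/fl libraries 1, 2 and 3 and at 31.2, 31.6 and 33.0 CPM in KO libraries 3, 4 and 5. The KO values fell between fl/fl library 2 and the other controls, and the log2 fold change was -0.19 (SE 0.13). Per kb of exon, which allows genes to be compared, Atp11b stood at 4.03 times the level of Atp11a in fl/fl libraries (± 1.04 SD, n = 3) and at 2.00 times in KO libraries (± 0.398 SD, n = 3). The genotype difference in this ratio carries the Atp11a values that chose the gene, so it is no result. The ratio ranged from 1.55 in KO library 4 to 5.02 in fl/fl library 1, and Atp11a was thus the less abundant of the pair in all 6 libraries.

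Atp8a1 and Atp8b1 were lower on average in KO libraries, with overlapping groups. Atp8a1, a flippase for phosphatidylserine in recycling endosomes, was at 1.72, 2.68 and 2.93 CPM in fl/fl libraries 1, 2 and 3 and at 1.11, 1.89 and 2.58 CPM in KO libraries 3, 4 and 5 (counts between 35 and 89). Within each genotype the library of day 1 was the lowest, and the log2 fold change for genotype was -0.42 (SE 0.24). Atp8b1, the canalicular flippase, was at 15.2, 12.7 and 8.93 CPM in fl/fl and at 9.78, 11.6 and 7.83 CPM in KO libraries. The lowest control lay below 2 of the 3 KO libraries, and the log2 fold change was -0.32 (SE 0.22). Without fl/fl library 1 the Atp8b1 value was -0.16, and without KO library 4 it was -0.54. With the run of index numbers as a further term it was 0.09 (SE 0.29), so the sign of the Atp8b1 difference depended on that term.

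Atp9a and Atp9b, flippases of endosomes and the trans-Golgi network, varied little. Atp9a was at 34.5, 31.7 and 36.0 CPM in fl/fl libraries 1, 2 and 3 and at 33.2, 38.7 and 35.4 CPM in KO libraries 3, 4 and 5, a log2 fold change of 0.07 (SE 0.11). Atp9b was at 22.6, 24.8 and 19.6 CPM in fl/fl and at 19.0, 20.4 and 21.1 CPM in KO libraries, a log2 fold change of -0.15 (SE 0.13). In both genes the groups overlapped and the highest library was at most 1.31 times the lowest.

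Atp10d belongs to the subgroup that flips glucosylceramide and phosphatidylcholine, and the mouse annotation lists it as a polymorphic pseudogene. It was at 1.98, 1.53 and 1.81 CPM in fl/fl libraries 1, 2 and 3 and at 1.42, 2.07 and 2.19 CPM in KO libraries 3, 4 and 5 (counts between 45 and 76). The KO library was the lower on day 1, at 0.721 times the control, and both KO libraries were above both controls on day 2, at 1.27 times on average. The overall log2 fold change was 0.08 (SE 0.27), and the genotype by day interaction was 0.82 (SE 0.51, unadjusted p = 0.161, FDR 1.00 by edgeR). Without fl/fl library 1, the only control of day 1, the genotype value was 0.35, and it turned to -0.073 without fl/fl library 2 and to -0.019 without KO library 5, so it has no fixed direction.

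Tmem30a, which encodes the CDC50A subunit, was at 154.9, 129.6 and 144.8 CPM in fl/fl libraries 1, 2 and 3 and at 134.9, 152.8 and 134.7 CPM in KO libraries 3, 4 and 5. The groups covered nearly the same range, with a log2 fold change of -0.02 (SE 0.12). Across the 8 genes, the genotype log2 fold change had a median of -0.09, with 3 genes higher and 5 lower in KO libraries. Leaving out single libraries changed the sign of Atp9a, Atp10d and Tmem30a, as did the index run as a further term for Atp8b1 and Atp9b. Over all genes tested the median was 0.0030, with 50.5% higher.

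**Figure D2:**
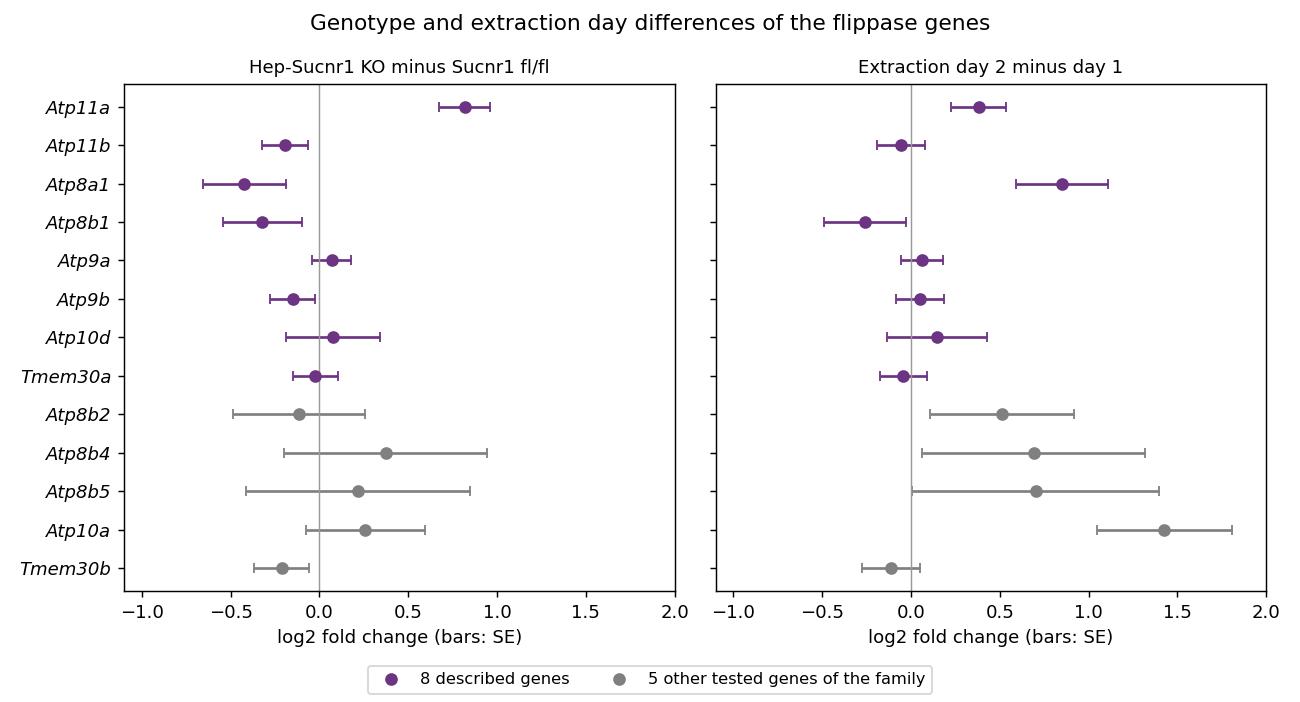
Points give the log2 fold change (x axis) of each of 13 tested family genes (y axis) for genotype (left) and extraction day (right), and bars give ± 1 SE. Purple marks the 8 described genes and grey 5 others. In the left panel Atp11a, which was picked on this contrast, lies at 0.82 and the other genes lie between -0.42 and 0.37. In the right panel Atp8a1 (0.85) and Atp10a (1.43) lie farthest to the right.

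The difference between extraction days did not choose the genes, so the 8 genes were tested on it. Day was, however, a covariate in the fit that chose Atp11a. The Atp11a day test is therefore not fully independent of that choice. By edgeR, 0 of the 8 genes passed an FDR of 0.05, as did 0 of 15105 genes (0%), and 2 of the 8 had an unadjusted p below 0.05, against 1132 of all genes (7.49%). DESeq2 called 220 genes (1.46%), none of them among the 8. Atp8a1 was at 1.41 CPM ± 0.430 (SD, n = 2) on day 1 and 2.52 CPM ± 0.446 (SD, n = 4) on day 2, a log2 fold change of 0.85 (SE 0.26, unadjusted p = 0.0140, edgeR FDR 0.541). All 4 libraries of day 2 lay above both of day 1, a separation in this direction seen in 1284 of all genes (8.5%). Atp11a had a log2 fold change of 0.38 for day 2 against day 1 (SE 0.15, unadjusted p = 0.0428, edgeR FDR 0.636), with overlapping days. The other 6 genes lay between -0.26 (Atp8b1, SE 0.23) and 0.15 (Atp10d, SE 0.28), with edgeR FDRs of 0.933 or more.

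Of 5 other tested family genes, 4 were higher on day 2, as were 8046 of all 15105 genes. The 5 had a median log2 fold change of 0.69 against 0.017 over all genes. That median was the value of Atp8b4 (SE 0.63, 82 counts over all libraries), and the SEs of Atp8b2 and Atp8b5 were 0.40 and 0.69. Atp10a, a flippase for phosphatidylcholine, had 10 and 8 counts in the day 1 libraries and 18, 21, 25 and 28 counts in those of day 2, a log2 fold change of 1.43 (SE 0.38, unadjusted p = 0.00763, edgeR FDR 0.505). Summed Kupffer cell markers were at 4.84 and 28.0 CPM on day 1 and at 23.5 to 86.7 CPM on day 2, with all 6 markers detected in every library. Their part in the day values of Atp8a1 and Atp10a was not tested. For the genotype by day interaction, 0 of the 7 genes other than Atp11a had an unadjusted p below 0.05, against 557 of all genes (3.69%), and edgeR called 0 genes (0%) and DESeq2 4 (0.0265%).

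Levels were compared between genes as CPM per kb of exon, with exons of all annotated transcripts merged. Tmem30a was the most abundant of the 8, at 25.1 CPM per kb on average, above 90.5% of the 15084 tested genes with a length. Among the 7 flippases Atp9a led at 5.90 CPM per kb, followed by Atp11b at 3.74, Atp9b at 1.79, Atp8b1 at 1.64, Atp11a at 1.40, Atp10d at 0.234 and Atp8a1 at 0.151 CPM per kb. The ranges over libraries of Atp9b, Atp8b1 and Atp11a overlapped, so their order is not fixed: Atp8b1 was above Atp11a in 3 of 6 libraries, which were the 3 controls. Atp11b, by contrast, was above Atp9b without overlap in 6 of 6 libraries, and Atp11a above Atp10d likewise. Atp10d and Atp8a1 had overlapping ranges, though Atp10d was the higher in 6 of 6 libraries. With the length of the longest annotated transcript in place of merged exons, Atp11a moved up 1 place, from 7th to 6th of 16 family genes, above Atp8b1.

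A further 8 family genes placed these levels in context. Tmem30b, a second CDC50 subunit, was at 6.23 CPM per kb (log2 fold change for genotype -0.21, SE 0.15, edgeR FDR 0.998), between Tmem30a and Atp9a in the order of mean levels, though it was above Atp9a in only 3 of 6 libraries. Atp8b2, Atp10a, Atp8b4 and Atp8b5 were between 0.0349 and 0.107 CPM per kb, with genotype log2 fold changes from -0.11 to 0.37 and SEs of 0.33 to 0.63. Atp8a2, Atp10b and Tmem30c had 3 counts or fewer over all libraries together, which is at the floor of detection, and Atp8a2 is a flippase known from neurons and photoreceptors. Atp8b3 was not analysed here.

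**Figure D3:**
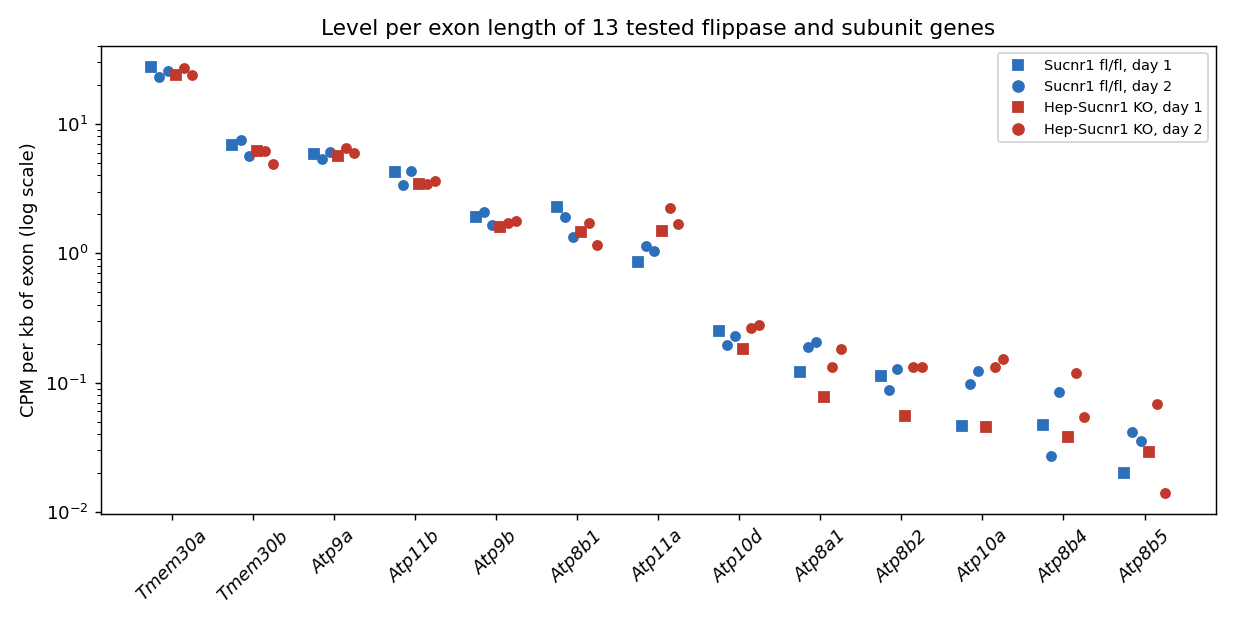
The y axis gives CPM per kb of exon on a log scale for 13 tested genes (x axis, from high to low). Each point is 1 library, coloured by genotype and shaped by extraction day. Tmem30a lies near 25 CPM per kb, a group from Tmem30b to Atp11a lies between 0.85 and 7.5 CPM per kb, and the genes from Atp10d down lie below 0.28 CPM per kb.

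The summed message of the 7 described flippases differed between genotypes by less than its SD, at 14.9 CPM per kb ± 0.631 (SD, n = 3) in fl/fl and 14.8 CPM per kb ± 1.13 (SD, n = 3) in KO libraries. Atp9a, Atp11b and Atp9b together supplied 72.9% to 81.1% of it. Atp11a supplied 5.50%, 8.04% and 7.05% in fl/fl libraries 1, 2 and 3 and 10.7%, 13.9% and 11.4% in KO libraries 3, 4 and 5. The groups did not overlap, as follows from the Atp11a counts themselves. Without the Atp9 genes and Atp11a, the other 4 flippases (Atp11b, Atp8b1, Atp10d and Atp8a1) summed to 6.22 CPM per kb ± 0.646 (SD) in fl/fl and 5.30 CPM per kb ± 0.237 (SD) in KO libraries. Tmem30a stood at 3.50 times (± 0.118 SD) the sum of the 5 described flippases other than Atp9a and Atp9b in fl/fl and at 3.52 times (± 0.0903 SD) in KO libraries, with a range of 3.37 to 3.62 times over all 6. Tmem30a exceeded Tmem30b by 3.06 to 4.86 times.

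**Figure D4:**
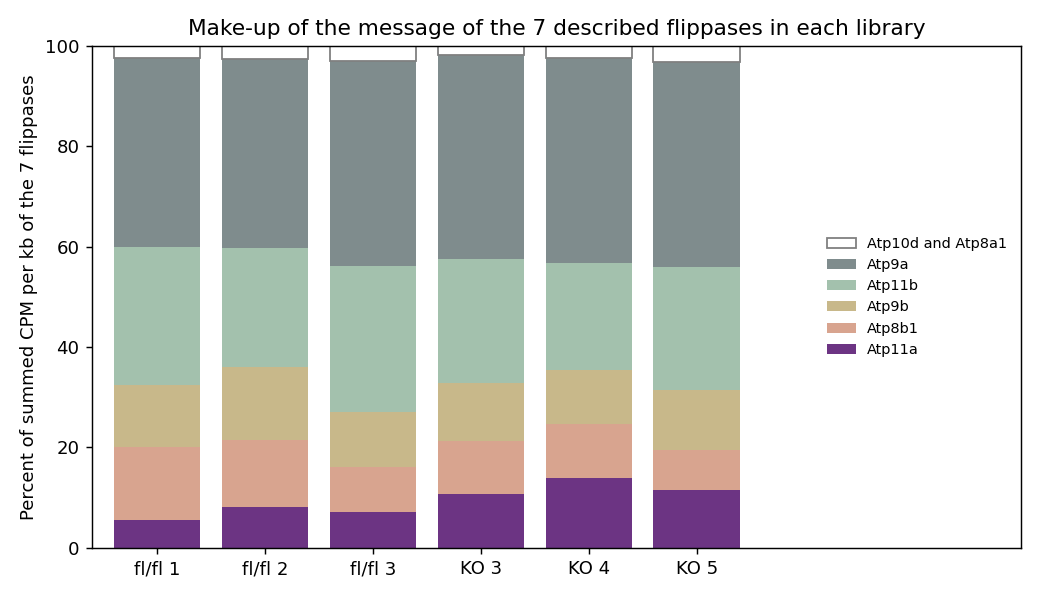
Stacked bars give the percent of the summed CPM per kb of the 7 described flippases (y axis, 0 to 100%) held by each gene in the 6 libraries (x axis). The purple Atp11a segment is 5.50% to 8.04% in the 3 fl/fl libraries and 10.7% to 13.9% in the 3 KO libraries, while Atp9a is the largest segment in each, at 37.6% to 41.0%.

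The 8 genes differed in how much they varied between libraries. The SD of log2 CPM over 6 libraries was 0.10 for Atp9a and 0.11 for Tmem30a, smaller than in all but 8.26% and 10.2% of the genes tested. It was 0.50 for Atp11a and 0.51 for Atp8a1, larger than in 80.1% and 80.8% of genes. In Atp8a1 and Atp10d, whose counts were lowest, counting error alone amounts to 10.6% to 16.9% of a value. Genes of which a stretch overlaps a member on the same strand held few reads: AC102268.2 had 103 counts beside 2241 of Atp8b1, Gm43203 had 10 beside 6887 of Atp11b, and Gm42735 had 2 beside 428 of Atp8a1.

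Genes whose levels followed Atp11a most closely over the 6 libraries were found by the root mean square difference of their centred log2 CPM, among 11713 genes with a mean of at least 1 CPM. They were Rps25-ps1, Mcm5, Gm10073, Adam11, Them7, Tifa, Rnase4 and Gm16551, at distances of 0.14 to 0.20. Mcm5, a subunit of the replicative helicase, was at 0.780, 0.842 and 1.02 CPM in fl/fl and at 1.55, 2.24 and 1.70 CPM in KO libraries. Rnase4, a secreted ribonuclease of liver, was at 215.8, 361.5 and 262.7 CPM in fl/fl and at 341.1, 525.3 and 345.3 CPM in KO libraries. Both peaked in KO library 4 and were lowest in fl/fl library 1, as was Atp11a. Because they were picked for likeness to Atp11a in these libraries, the shared pattern and the genotype differences are no result. Rps25-ps1 is a processed pseudogene, whose counts may include reads of its parent gene. None of the 7 other described genes was near: the closest, Atp9a, ranked 2304th at 0.42, and Atp8a1 ranked 10468th at 0.70.

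The genes around Atp11a on chromosome 8 did not share its genotype difference in size. Within 500000 bases of either end of Atp11a, 20 other genes were in the counts and 11 passed the filter. Their genotype log2 fold changes lay between -0.09 (Tfdp1, SE 0.18) and 0.25 (Dcun1d2, SE 0.30), 7 higher and 4 lower in KO libraries. By the edgeR fit across all genes, 0 of 11 had an unadjusted p below 0.05 (3.73% of all genes did), the smallest being 0.248. The genotype groups overlapped in 11 of 11. They did not in 10.6% of all genes, and 0 of 11 is near that share. Since Atp11a was picked on this contrast and its neighbours were not, their smaller values are no result. Tubgcp3, the nearest tested gene on the upstream side, was at 8.06, 9.32 and 8.40 CPM in fl/fl and at 7.91, 9.48 and 8.47 CPM in KO libraries. F7, F10 and Proz, coagulation factor genes that begin 269 to 304 kb downstream of the Atp11a start, had log2 fold changes of 0.13, 0.06 and 0.10 (SE 0.13, 0.16 and 0.12).

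**Figure D5:**
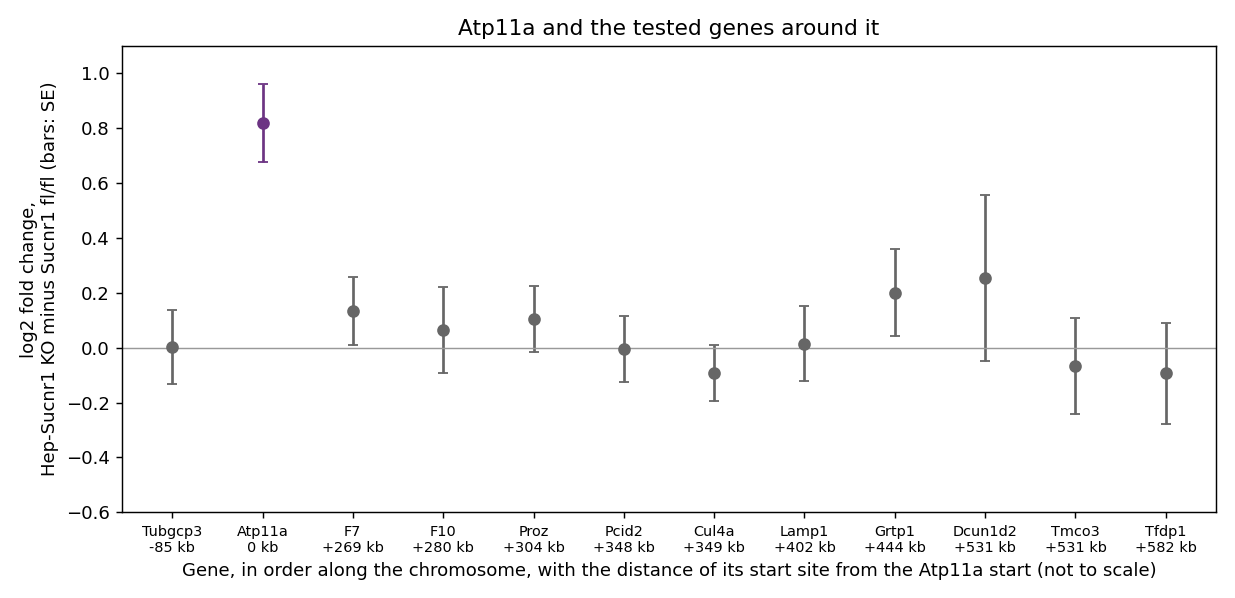
The y axis gives the genotype log2 fold change (bars: ± 1 SE) of Atp11a, in purple, and of the 11 tested genes within 500000 bases of it, in grey. Genes stand in chromosomal order on the x axis, with the distance between start sites in kb. Atp11a, which was picked on this comparison, lies at 0.82 and its neighbours between -0.09 and 0.25.

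Other genes of membrane lipid asymmetry were examined as lists beside the 8 genes, on the genotype comparison and with none of their members past an FDR of 0.05 by edgeR. Of 11 tested scramblase genes 5 were higher and 6 lower in KO libraries (median log2 fold change -0.01). Unadjusted edgeR p-values below 0.05, which 3.73% of all genes had, went to Plscr1 at 0.32 (SE 0.12) and to Xkr9 at -0.32 (SE 0.11). In both the genotype groups overlapped. Xkr8, a scramblase that caspases activate, was at -0.37 (SE 0.21). Of 6 lipid exporters 5 were lower (median -0.22). Abcg5 at -0.31 (SE 0.11) and Abcg8 at -0.36 (SE 0.15), which together export sterols, had unadjusted p-values below 0.05. In both, every KO library was below every control, as in 4.04% of all genes, but narrowly. Abcg5 was at 19.81 CPM both in fl/fl library 1 and in KO library 4. Abcg8 was at 22.7 CPM in fl/fl library 3 and 22.2 CPM in KO library 4. Abcb11, the bile salt export pump, was at 0.02 (SE 0.13) and changed sign with the scaling. These lists show values of both signs around the 8 genes, against a median of 0.0030 over all genes.

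Genes that make or bind the flippases' substrates gave values of both signs. Of 12 genes of aminophospholipid synthesis and conversion, which include genes of phosphatidylcholine synthesis such as Pcyt1a, 9 were higher and 3 lower (median 0.09), and none had an unadjusted p below 0.05. Pemt, which methylates phosphatidylethanolamine to phosphatidylcholine, was at 0.17 (SE 0.12), and Ptdss2, a phosphatidylserine synthase, at -0.22 (SE 0.19). Of 10 genes of phosphatidylserine transport and endosomal partners 5 were higher and 5 lower (median -0.01), from -0.57 (SE 0.44) for Osbpl5, a lipid exchange protein, to 0.21 (SE 0.18) for Ehd1, an endosomal ATPase, again with no unadjusted p below 0.05. The list of other members of the wider P-type ATPase superfamily holds ion and metal pumps and the P5-ATPases of the Atp13a group. In this list, chosen with earlier results of these data known, 9 of 9 were lower (median -0.27). Of all 15105 genes, 7481 were lower. The P5-ATPase gene Atp13a3 at -0.33 (SE 0.12), Atp2b1 at -0.30 (SE 0.11) and Atp7a at -0.37 (SE 0.15) had unadjusted p-values below 0.05, against 3.73% of all genes. Of 5 other tested family genes, 3 were higher and 2 lower (median 0.22).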

How the data were processed

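The authors trimmed stranded read pairs (Trim Galore 0.6.7), aligned them to GRCm38 (STAR 2.7.10a) and counted pairs per Ensembl gene by strand (featureCounts). The deposited values are raw counts per gene in 6 libraries of 30504248 to 38770694 counts. Here genes with a mean DESeq2-normalized count above 5 were fitted with edgeR 4.0.16 (quasi-likelihood, TMM, extraction day and genotype as terms, Benjamini-Hochberg FDR 0.05) in R 4.3.3. The study's own model, DESeq2 (1.42.0 here) with day as covariate, was the alternative. CPM are TMM-scaled, and lengths came from GENCODE vM21 (GRCm38). Promoters came from RefSeq (GRCm38.p6). The fits were tested on simulated data, where both tools made more false calls than the FDR aimed at, DESeq2 more than edgeR. Gene symbols were found for 25096 of 25184 IDs. The 8 genes, the marker lists and the other lists (other family genes, scramblases, exporters, aminophospholipid synthesis, phosphatidylserine transport, other P-type ATPases) were chosen with earlier results of these data known. Some genes of these lists are not reported here. Non-members named per list are those with an unadjusted p below 0.05 or the largest change in either direction. The labels do not say whether the libraries of a genotype came from separate mice, so p-values measure only the spread between these libraries, which may be technical. Alternatives were the scaling, the filter, the covariates, day 2 alone, the index run and leaving out each library.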

Additional observations from a re-analysis of the deposited data

How the results depend on the processing

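The genotype log2 fold change of Atp11a, which chose the gene from these same libraries, was 0.79 to 0.90 under other settings and 0.69 to 0.93 leaving out single libraries. For genotype, edgeR called 0 genes, also without any single library (0 to 0). DESeq2 called 7 both with and without independent filtering, a filtering setting chosen after seeing the data. The sets differed, since Atp11a was called with that filtering (DESeq2 adjusted p 0.0463) and not without it (0.0556). For extraction day the 0 calls became 220 with DESeq2, 225 with its independent filtering, 122 with no filter on low counts and 29 without fl/fl library 2 (range without single libraries 0 to 29). DESeq2 called 4 genes for the interaction, whose median over all genes moved from 0.0041 to -0.11 with library size alone. Sucnr1 passed the threshold in both DESeq2 fits, at -2.31, and ranged from -2.82 to -1.71 without single libraries. Of 475 recomputed values, 24 differed in sign from the value reported, 9 of them genotype values of the 8 genes. Abcb11 was at -0.00070 with DESeq2 (both filterings) and -0.00071 with its size factors, -0.0064 with library size alone, -0.072 with the index run and -0.043 to 0.069 without single libraries. Osbpl5 was at 0.19 with the index run. Without single libraries, the day values ranged from -0.28 to 0.58 (Atp10d), -0.20 to 0.049 (Atp11b), -0.066 to 0.16 (Atp9a), -0.058 to 0.13 (Atp9b) and -0.21 to 0.091 (Tmem30a), and the genotype values from -0.073 to 0.35 (Atp10d), -0.00052 to 0.13 (Atp9a), -0.10 to 0.067 (Tmem30a) and -0.019 to 0.36 (Ehd1). Tmem30a was at 0.059 with day 2 alone. With the index run as a term, the genotype values became -0.34 (Atp11b), 0.09 (Atp8b1) and 0.08 (Atp9b). The cause was not tested. No paired analysis was possible because the labels give no pairs of libraries, and the replicate numbers used here only name them. Sucnr1 loss, Cre and, in part, the index run cannot be told apart, and 3 libraries per group limit precision.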
